A study of Homo sapiens with 9 samples.

Results

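The genes described here are 54 genes of DNA replication and mitosis, of 19706 genes in the deposited expression table. They were chosen by name: 30 act in the licensing, firing and synthesis of DNA replication or in the entry into S phase, and 24 act from the G2 phase to cell division. All 54 were found in the table and all 54 passed the filter on low values. RNA was measured in 3 human neuroblastoma lines, with 3 libraries each and 9 in all. Kelly and BE(2)C carry an amplified MYCN oncogene, and SH-SY5Y does not. All libraries are polyadenylated RNA of untreated cells, so no group carries a treatment or an introduced allele. Each line is a single established line, and BE(2)C and SH-SY5Y are clonal derivatives of older lines. Since SH-SY5Y alone lacks the amplification, an effect of MYCN and one of the line itself cannot be told apart. Whether the 3 libraries of a line are separate cultures is not stated in the labels; p-values then reflect library-to-library spread alone, possibly technical.

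Each round of cell division copies the DNA and then parts the copies. In G1 the origin recognition complex, CDC6 and CDT1 load the ring of MCM2 to MCM7 proteins onto origins, and geminin blocks a further loading after S phase has begun. CDC45 and the GINS complex turn the loaded ring into the active helicase, and polymerases follow on the sliding clamp PCNA. Mitosis is driven by cyclin B with CDK1 and by the Polo and Aurora kinases, and anaphase begins when APC/C with CDC20 releases separase. In the textbook account, E2F factors drive the replication genes at the start of S phase, and the DREAM, B-MYB and FOXM1 complexes act on the mitotic genes later, through an element called CHR (cell cycle genes homology region). MYC proteins are known to promote cell cycle entry.

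Values are given as scaled TPM: the deposited TPM (a transcript's share of all transcripts), rescaled so that genes alone make up the total and adjusted by a trimmed-mean factor between libraries. TPM is a level per transcript length, and the depth of the libraries is unknown. In bulk RNA, fewer cells in a phase and less RNA per cell cannot be told apart. Synthetic spike-in RNA took 83.7% to 90.6% of the deposited total, so the scaling matters. All 10 sympathetic neuroblast markers examined were at 1 or more in every library, with summed levels of 5910 to 7620 scaled TPM. Leukocyte markers summed to 0.283 to 4.75, epithelial to 0.419 to 2.31, hepatic to 0 to 0.575 and erythroid to 0 to 0.0874. PTPRC and CD3E were at 0 in BE(2)C and SH-SY5Y. CD14, another leukocyte marker, was at 3.87 to 4.75 in BE(2)C, 1.61 to 1.99 in SH-SY5Y and 0.283 to 1.40 in Kelly. Fibroblast markers summed to 84.1 at most, with PDGFRB the most abundant. MYCN stood at 4800 to 6800 in the amplified lines and at 26.5 to 28.4 in SH-SY5Y, as the labels have it. Its relative MYC ran the other way, at 89.3 to 91.2 in SH-SY5Y, 0 to 0.186 in Kelly and 0.387 to 0.706 in BE(2)C. The mitochondrial share of the gene total was 24.5% to 35.3% in BE(2)C and 16.5% to 19.8% in the other lines. A scaling with mitochondrial genes left out of the total was run, and its results are given below. Beyond that scaling, the part of this share in the results was not tested. Over 61 abundant spike-ins, the largest shift of Kelly was 1.42 from SH-SY5Y and 1.24 from BE(2)C on the log2 scale, while that of BE(2)C from SH-SY5Y was 0.181. The SD of these shifts was 0.348 for Kelly from SH-SY5Y, 0.332 for Kelly from BE(2)C and 0.0539 for BE(2)C from SH-SY5Y. Except for AURKA against SH-SY5Y, every Kelly difference of a member given below is smaller than the largest shift. The part of this technical shift was not tested.

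Both gene classes were mostly higher in the MYCN-amplified lines on the scaled TPM, and the mitotic class was the more uniform. In Kelly against SH-SY5Y, 18 of 30 replication genes were called higher and 4 lower (limma over 13076 genes, Benjamini-Hochberg adjusted p under 0.05), where 28.1% of all tested genes were called higher and 27.2% lower. Of the 24 mitotic genes, 17 were higher and 1 lower. In BE(2)C against SH-SY5Y, 18 replication genes were higher and 7 lower, and 19 mitotic genes were higher and 0 lower, beside a background of 28.6% higher and 30.7% lower. By unadjusted p under 0.05, limma also found 0 mitotic genes lower there. Both comparisons share the SH-SY5Y libraries. Between the amplified lines, 11 replication genes were higher in Kelly and 7 lower, against 3 higher and 8 lower mitotic genes, beside 27.9% and 24.6% of all genes.

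The median log2 fold change of the replication genes was 0.42 in Kelly and 0.34 in BE(2)C against SH-SY5Y, but turned negative, at -0.27 and -0.21, when spike-ins stayed in the total. For the mitotic genes it was 0.52 in each line, but -0.18 and -0.05 on that deposited scale. The same change of scale moved the median of all tested genes from 0.00 to -0.43 in Kelly and from -0.04 to -0.35 in BE(2)C. Relative to all genes on the deposited scale, the replication medians were 0.16 in Kelly and 0.13 in BE(2)C, and the mitotic medians 0.25 and 0.30. These relative values depend on the pseudocount of 1. With a pseudocount of 0.1 on the deposited values, chosen after seeing the data, the replication medians were 0.38 and 0.33 relative to all genes. The mitotic medians were then 0.48 and 0.51. With library totals alone, the median of all genes was -0.13 in Kelly and -0.44 in BE(2)C, and in BE(2)C the replication median turned to -0.12 while the mitotic median stood at 0.06. Relative to all genes, these were 0.32 and 0.50. Relative to the median of all genes, the 4 class medians stood above 0 under all 5 scalings that were run, from 0.08 to 0.55. Among all genes called in a comparison, the share called higher also moved with the scale: from 50.8% to 15.1% in Kelly, from 48.2% to 18.9% in BE(2)C and from 53.1% to 43.2% in Kelly against BE(2)C on the deposited values. With library totals alone these shares were 41.6%, 23.8% and 74.2%.

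**Figure D1:**
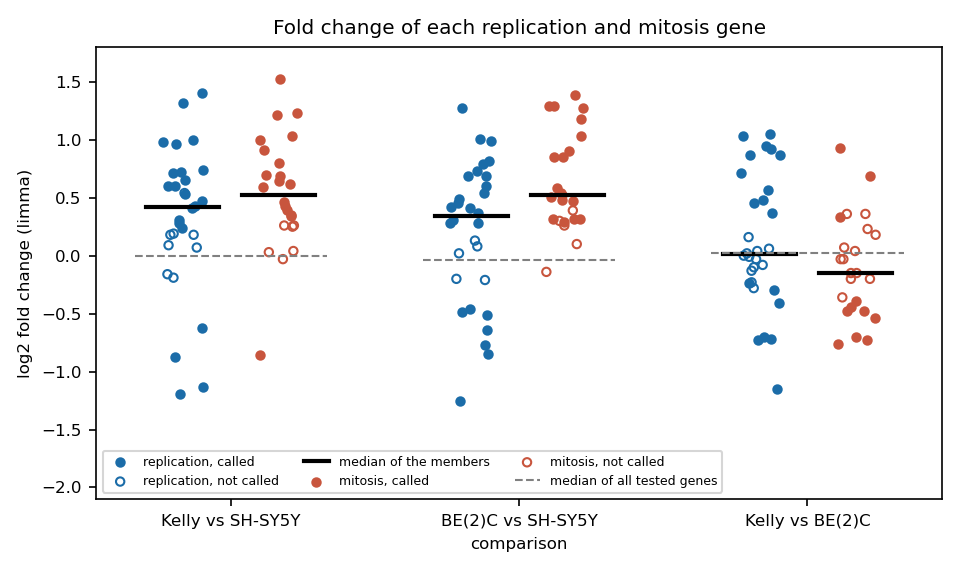
Each point is 1 gene's log2 fold change on the scaled TPM (vertical axis) in 1 of the 3 comparisons (horizontal axis), filled where limma called it; black bars are class medians and dashed lines the median of all tested genes. Against SH-SY5Y the mitotic points lie above 0 with the exception of BUB1 in both lines and MAD2L1 in Kelly, while the replication points spread from -1.25 to 1.40; on the deposited scale all 4 of these class medians fall below 0.

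A few members kept their call under all 5 scalings (scaled TPM, library totals, deposited values, mitochondrial genes left out of the total, quantile normalization). In Kelly against SH-SY5Y these were MCM2, MCM5, AURKA and AURKB, higher, and MCM6, MCM7, RRM1, CHEK1 and BUB1, lower. In BE(2)C against SH-SY5Y they were GMNN, GINS3, CCNA2, CCNB1, PLK1, AURKA and CENPE, higher, and MCM6, MCM7, MCM10, ORC1, RFC2, TYMS and CCNE1, lower. In Kelly against BE(2)C they were MCM2, MCM5, MCM10, ORC1, CDC45, RFC2, RFC4, TYMS, CCNE1 and FOXM1, higher, and MCM7, CHEK1 and CCNB2, lower. These calls, 21 higher and 15 lower of 113 in the 3 comparisons, also held when each library in turn was left out. The rest of the text gives values on the scaled TPM. On the deposited values, 32 of the 54 members had the opposite sign in Kelly against SH-SY5Y and 25 in BE(2)C, of which 29 and 21 were called on either scale. With library totals alone, 4 members changed sign in Kelly, 18 in BE(2)C and 16 between the amplified lines, of which 0, 13 and 5 were called on either scale.

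**Figure D2:**
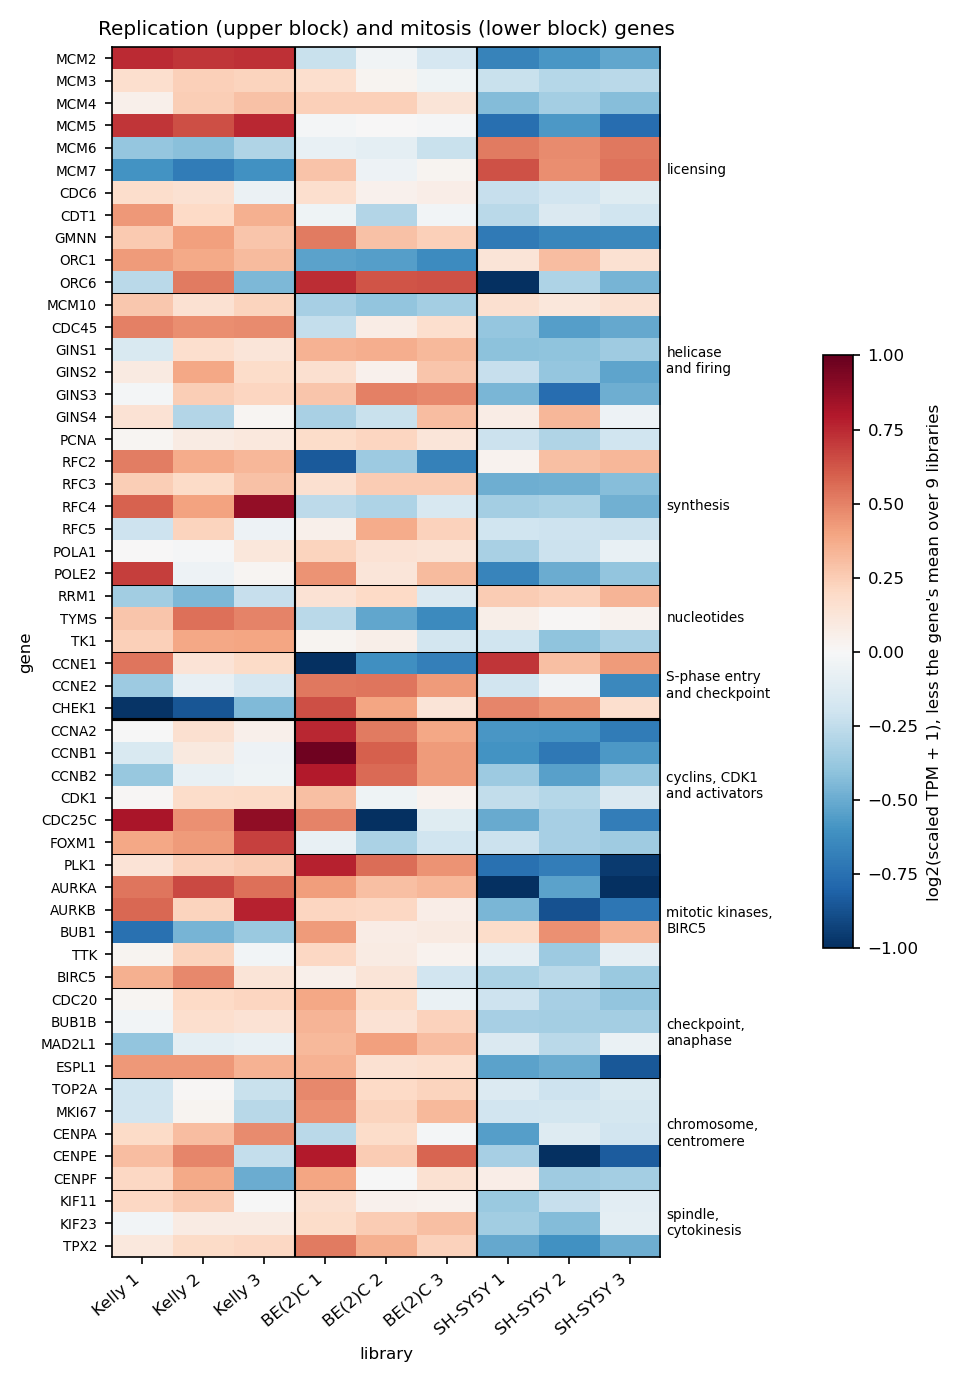
Rows are the 54 genes ordered by role and columns the 9 libraries; colour is log2(scaled TPM + 1) less the gene's mean over the libraries, limited to 1 in either direction. Most rows are blue in SH-SY5Y, MCM6, MCM7, RRM1 and BUB1 run the other way, and the cyclin rows are darkest in BE(2)C library 1; on values scaled with spike-ins in the total, 32 Kelly and 25 BE(2)C differences from SH-SY5Y change sign.

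The classes differ in their promoter sequences, which are given before the levels of the single genes. RefSeq promoter windows on GRCh38.p14, from 250 bases before to 50 bases after the annotated start, were matched by symbol for 45 of the 54 genes. MCM4, MCM5, GINS4, CCNE2, AURKA, TTK, FOXM1, BIRC5 and TPX2 had no entry. Both strands were searched for an E2F-type site (TTTCCCGC, TTTCGCGC, TTTGGCGC or TTTGCCGC), a CHR element, a CCAAT box, an E-box and a GC box. The CHR element was taken as the word TTTGAA, which is the usual form in mitotic promoters, and the alternative form of this element was TTCGAA in the same search. The CCAAT box is named by its letters. The E-box was the palindrome CACGTG, and the word used for the GC box, which binds factors of the SP family, was GGGCGG on either strand. Matches of different motifs may share bases. An E2F-type site was found in 14 of 26 replication promoters (53.8%) and in 2 of 19 mitotic promoters (10.5%), against 5.27% of the promoters of 9937 tested genes and 3.33% of 27305 in all. A CHR element was found in 14 of 19 mitotic promoters (73.7%) and 2 of 26 replication promoters (7.69%), against 10.8% of tested genes and 16.6% of all. A CHR element together with a CCAAT box was in 13 mitotic promoters (68.4%) and in 4.64% of those of tested genes. The CCAAT box alone was in 84.2% of mitotic, 57.7% of replication and 36.6% of tested promoters. The E-box, the motif bound by MYC proteins, was in 11.5% of replication, 21.1% of mitotic and 10.2% of tested promoters, and the GC box in 80.8%, 68.4% and 70.2%. A match is a description of the letters and not evidence of binding.

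**Figure D3:**
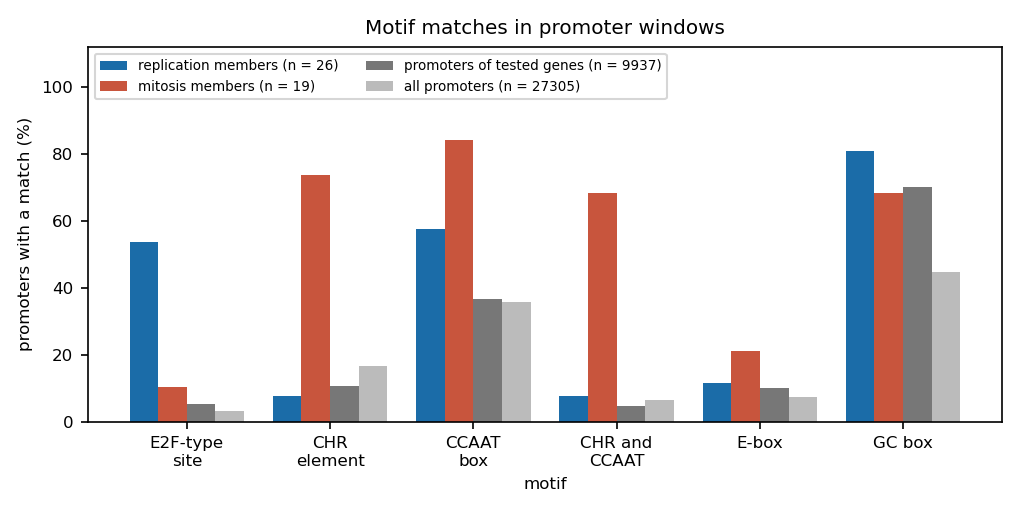
Bars give the percentage of promoter windows with at least 1 match (vertical axis) for each motif (horizontal axis), in replication genes, mitotic genes, tested genes and all windows. E2F-type sites stand out in the replication genes (53.8%) and CHR elements in the mitotic genes (73.7%), while the E-box and GC box bars are closer to those of tested genes.

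Replication members of different function show what these sites look like. The windows below are the 100 bases before the start, 5′ to 3′, with E2F-type sites and CCAAT boxes in capitals. They are MCM6 (chr2:135876444-135876543, minus strand) and MCM7 (chr7:100101398-100101497, minus strand), helicase subunits that were lower in both amplified lines, PCNA (chr20:5126623-5126722, minus strand), the sliding clamp, and CDT1 (chr16:88803689-88803788, plus strand), the licensing factor.
MCM6: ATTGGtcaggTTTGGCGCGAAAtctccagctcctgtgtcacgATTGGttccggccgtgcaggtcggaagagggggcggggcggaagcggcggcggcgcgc
MCM7: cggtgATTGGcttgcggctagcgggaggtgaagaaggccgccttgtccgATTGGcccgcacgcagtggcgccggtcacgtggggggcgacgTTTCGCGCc
PCNA: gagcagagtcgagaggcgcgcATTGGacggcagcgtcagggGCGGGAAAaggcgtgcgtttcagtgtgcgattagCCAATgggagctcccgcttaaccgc
CDT1: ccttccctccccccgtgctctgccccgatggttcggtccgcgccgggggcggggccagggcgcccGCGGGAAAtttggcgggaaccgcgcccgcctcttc
The median position of the first base of an E2F-type match in the replication promoters was -37, counted from the start. In MCM6, 2 overlapping E2F-type words begin at -90 and -86, and the same pair occurs again at -152 and -148. MCM6 and MCM7 hold E2F-type words, as do PCNA and CDT1. Against SH-SY5Y on the scaled TPM, PCNA was called higher in both amplified lines and CDT1 in Kelly alone. Whether these words bear on the direction was not tested.

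Mitotic members show the other pattern. The next windows, with CHR elements and CCAAT boxes in capitals, are those of PLK1 (chr16:23678789-23678888, plus strand), CCNB2 (chr15:59105046-59105145, plus strand), CDC20 (chr1:43358881-43358980, plus strand), KIF23 (chr15:69414249-69414348, plus strand) and MKI67 (chr10:128126424-128126523, minus strand).
PLK1: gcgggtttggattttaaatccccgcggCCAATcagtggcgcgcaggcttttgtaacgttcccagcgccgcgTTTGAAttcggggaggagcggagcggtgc
CCNB2: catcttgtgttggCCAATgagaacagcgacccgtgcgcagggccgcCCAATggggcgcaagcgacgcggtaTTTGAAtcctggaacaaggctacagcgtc
CDC20: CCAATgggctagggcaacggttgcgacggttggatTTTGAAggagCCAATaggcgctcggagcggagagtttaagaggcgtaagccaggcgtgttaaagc
KIF23: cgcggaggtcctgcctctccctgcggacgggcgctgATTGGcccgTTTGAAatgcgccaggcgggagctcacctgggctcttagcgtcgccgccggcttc
MKI67: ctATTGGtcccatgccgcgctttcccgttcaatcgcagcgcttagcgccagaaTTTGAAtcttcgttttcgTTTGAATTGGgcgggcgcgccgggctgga
The CHR element began at -29 in PLK1 and CCNB2 and at -65 in CDC20, and its median position over the mitotic promoters was -29. In MKI67 the second of 2 CHR elements shares only its last base with a CCAAT box on the other strand. On the scaled TPM, 12 of the 14 replication genes with an E2F-type site were called higher in Kelly against SH-SY5Y, and 4 of the 12 without one. In BE(2)C these counts were 10 of 14 and 5 of 12. Of the 14 mitotic genes with a CHR element, 8 were higher in Kelly and 11 in BE(2)C, against 5 of 5 and 4 of 5 without one. Of all tested genes, 28.1% were called higher in Kelly and 28.6% in BE(2)C. Only the listed words count as a match, so a gene with another form of a site is counted as without one. These counts describe few genes on 1 scale and no difference between them was tested.

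Among the licensing genes, the 6 subunits of the MCM helicase moved in opposite directions. MCM2 stood at 493, 482 and 486 scaled TPM in Kelly, 251, 286 and 260 in BE(2)C and 184, 195 and 204 in SH-SY5Y. MCM5 stood at 547, 519 and 561 in Kelly, 328, 334 and 329 in BE(2)C and 197, 223 and 196 in SH-SY5Y. For both genes the 3 lines did not overlap, with Kelly highest and SH-SY5Y lowest. Against SH-SY5Y the log2 fold change of MCM2 was 1.32 ± 0.07 in Kelly (SE; limma, adjusted p = 3.22e-07) and 0.45 ± 0.07 in BE(2)C (adjusted p = 0.000288). That of MCM5 was 1.40 ± 0.06 in Kelly (adjusted p = 2.09e-07) and 0.69 ± 0.06 in BE(2)C (adjusted p = 1.7e-05). On the deposited values MCM2 turned to -0.12 in BE(2)C, while in Kelly both genes stayed higher.

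MCM7 ran the other way, at 92.0, 85.6 and 91.6 in Kelly, 171, 135 and 143 in BE(2)C and 218, 194 and 204 in SH-SY5Y. MCM6 stood at 83.3, 81.8 and 88.6 in Kelly, 104, 102 and 93.5 in BE(2)C and 157, 152 and 158 in SH-SY5Y. In both genes every library of the amplified lines was below every SH-SY5Y library. The log2 fold change of MCM7 was -1.19 ± 0.09 in Kelly (SE; limma, adjusted p = 6.27e-06) and -0.46 ± 0.09 in BE(2)C (adjusted p = 0.00218). That of MCM6 was -0.87 ± 0.06 (adjusted p = 4.13e-06) and -0.64 ± 0.06 (adjusted p = 2.73e-05). Both were called lower under all 5 scalings. MCM3 and MCM4 were higher in both amplified lines, by 0.47 and 0.31 for MCM3 and by 0.60 in each for MCM4, but MCM3 turned negative in both lines, and MCM4 in Kelly, on the deposited values.

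The proteins of the ring assemble in equal numbers, so the spread among their RNAs within a library was measured as well; a scaling factor of the library does not change it. The highest of the 6 was 6.42 ± 0.133 times the lowest in Kelly (SD, n = 3), 4.36 ± 0.170 times in BE(2)C and 2.25 ± 0.0436 times in SH-SY5Y. The libraries of the 3 lines did not overlap in this ratio, which ran from 6.33 to 6.57, from 4.20 to 4.54 and from 2.20 to 2.28. A level between genes can depend on which transcripts a gene's value holds, and the sources used here do not say how transcripts were combined.

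**Figure D4:**
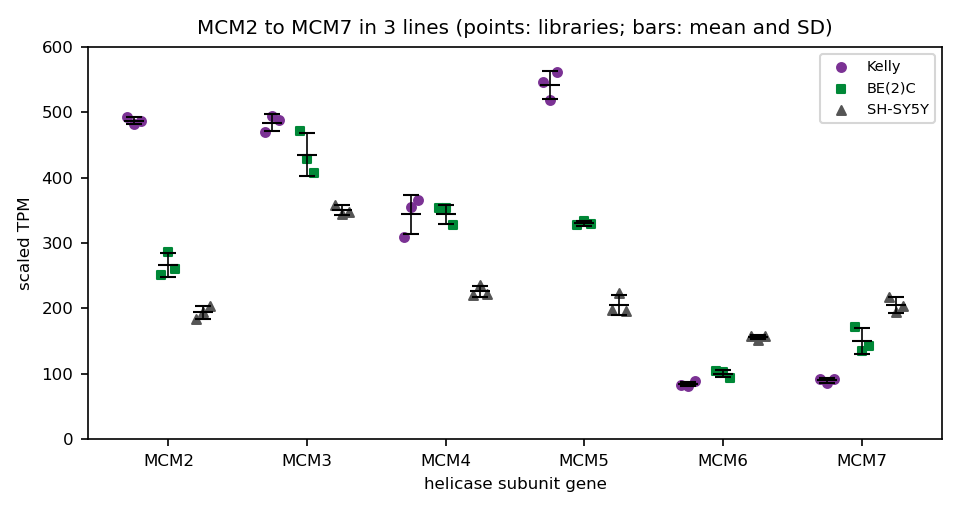
Scaled TPM (vertical axis, from 0) of the 6 MCM genes (horizontal axis) in each library, with the mean and SD of each line. MCM2 and MCM5 fall from Kelly to SH-SY5Y while MCM6 and MCM7 climb in the same order, so that SH-SY5Y has the narrowest range; the MCM2 order of BE(2)C and SH-SY5Y reverses on the deposited values.

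Of the other licensing genes, GMNN, which encodes the licensing inhibitor geminin, was at 171, 189 and 172 in Kelly, 204, 174 and 168 in BE(2)C and 86.8, 90.2 and 90.8 in SH-SY5Y. Every amplified library lay above every SH-SY5Y library, by 0.98 ± 0.08 in Kelly (SE, log2; limma, adjusted p = 8.74e-06) and 1.01 ± 0.08 in BE(2)C (adjusted p = 6.08e-06). CDT1, its target, was higher in Kelly (0.53; -0.16 on the deposited values) and was not called in BE(2)C (0.08, adjusted p = 0.471, limma). The ratio of CDT1 to GMNN, which no scaling factor of a library moves, was 0.895 ± 0.0246 in SH-SY5Y (SD, n = 3), against 0.659 ± 0.0889 in Kelly and 0.470 ± 0.0593 in BE(2)C. ORC1, the largest subunit of the origin recognition complex, was lower in BE(2)C (-0.77) and was not called in Kelly (0.18). ORC6, the smallest, was higher in BE(2)C (1.27) on a wide spread in the other lines, with 22.6, 39.7 and 19.8 in Kelly, and its call of lower in Kelly than BE(2)C was lost when any 1 of 6 libraries was left out. CDC6, the loader, differed by 0.28 in each line and turned negative on the deposited values.

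Among the helicase activators, CDC45 showed the 3 lines in the order of MCM2. It stood at 160, 156 and 157 in Kelly, 95.5, 119 and 127 in BE(2)C and 85.8, 76.5 and 78.6 in SH-SY5Y. The log2 fold change against SH-SY5Y was 0.96 ± 0.10 in Kelly (SE; limma, adjusted p = 4.16e-05) and 0.49 ± 0.10 in BE(2)C (adjusted p = 0.00254), the latter -0.08 on the deposited values. Of the 4 GINS genes, GINS1, GINS2 and GINS3 were called higher in both lines, by 0.43 to 0.72 in Kelly and 0.54 to 0.99 in BE(2)C, and GINS4 in neither (-0.16 and -0.20); GINS1 and GINS2 turned negative in Kelly and GINS2 in BE(2)C on the deposited values. MCM10, which helps to start the helicase, was at 66.5, 63.5 and 66.0 in BE(2)C against 93.5, 90.6 and 93.1 in SH-SY5Y. It was lower in BE(2)C (-0.49) and not called in Kelly (0.07).

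The synthesis genes were led by PCNA, at 653, 680 and 691 in Kelly, 731, 745 and 699 in BE(2)C and 554, 523 and 559 in SH-SY5Y. Both amplified lines lay above SH-SY5Y, by 0.31 and 0.41, and below it on the deposited values (-0.40 and -0.16). The clamp loader subunits did not move together. RFC3 was higher in both lines (0.71 and 0.69), RFC4 in Kelly alone (0.13 and not called in BE(2)C), and RFC5 in BE(2)C (0.42) and not called in Kelly (0.19); on the deposited values RFC5 turned negative in both lines, RFC3 reached -0.00 in Kelly and RFC4 -0.38 in BE(2)C. RFC2 was at 34.2, 47.9 and 38.4 in BE(2)C and 63.5, 76.5 and 78.5 in SH-SY5Y, lower in BE(2)C with a log2 difference of -0.85 ± 0.13 (SE; limma, adjusted p = 0.000422). Between the amplified lines RFC2 and RFC4 were higher in Kelly, by 1.03 and 0.87. POLA1, the catalytic subunit of the priming polymerase, was higher by 0.24 in Kelly and 0.37 in BE(2)C, and its Kelly call was lost when any 1 of 7 libraries was left out. POLE2, a subunit of the leading strand polymerase, was higher by 0.74 and 0.82, and POLA1 alone of the pair turned negative on the deposited values.

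Nucleotide supply genes differed between the amplified lines. TYMS, which makes thymidylate, was at 448, 543 and 523 in Kelly, 306, 257 and 237 in BE(2)C and 386, 373 and 378 in SH-SY5Y. The lines did not overlap, with SH-SY5Y between the others. TYMS was higher in Kelly than in BE(2)C by 0.92 ± 0.10 (SE, log2; limma, adjusted p = 7.04e-05), and lower in BE(2)C than in SH-SY5Y (-0.51). RRM1, the large subunit of ribonucleotide reductase, was lower in Kelly than in SH-SY5Y (-0.62) and not called in BE(2)C (-0.21). TK1, the salvage kinase for thymidine, was higher by 0.65 and 0.28 and negative on the deposited values in both lines.

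The cyclins of S-phase entry were split between the lines. CCNE1 was at 35.7, 26.8 and 28.0 in Kelly, 11.6, 15.6 and 14.8 in BE(2)C and 40.6, 30.3 and 33.0 in SH-SY5Y. CCNE2, which encodes the second cyclin E, was at 13.6, 16.8 and 15.7 in Kelly, 26.1, 26.2 and 24.2 in BE(2)C and 15.5, 17.3 and 11.0 in SH-SY5Y. BE(2)C was thus the lowest line in CCNE1 and the highest in CCNE2, with no overlap with another line, while Kelly and SH-SY5Y overlapped in both. Against SH-SY5Y the log2 fold changes in BE(2)C were -1.25 ± 0.16 for CCNE1 (SE; limma, adjusted p = 0.000157) and 0.79 ± 0.17 for CCNE2 (adjusted p = 0.00296). CHEK1, the kinase of the replication checkpoint, was at 8.10, 8.94 and 12.2 in Kelly, 27.1, 22.6 and 18.6 in BE(2)C and 24.2, 23.4 and 19.2 in SH-SY5Y. Kelly alone was low, with a log2 fold change of -1.13 ± 0.19 (SE) against SH-SY5Y (adjusted p = 0.000827, limma) and -1.15 ± 0.19 against BE(2)C (adjusted p = 0.000816).

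Of the mitotic genes, the cyclins were highest in BE(2)C. CCNB1, the main mitotic cyclin, was at 677, 523 and 465 in BE(2)C, 310, 369 and 334 in Kelly and 228, 210 and 231 in SH-SY5Y. The lines did not overlap. Against SH-SY5Y, CCNB1 was higher in BE(2)C by 1.29 ± 0.13 (SE, log2; limma, adjusted p = 2.39e-05) and in Kelly by 0.59 ± 0.13 (adjusted p = 0.00348), the latter -0.12 on the deposited values. CCNB2 and CCNA2 were also higher in BE(2)C, by 1.03 and 1.18. In Kelly, CCNA2 was higher by 0.69 (-0.01 on the deposited values) and CCNB2 was not called (0.26). Against BE(2)C, Kelly was lower in CCNB1 (-0.70), CCNB2 (-0.76) and CCNA2 (-0.48), and CCNB2 kept that call under all 5 scalings. CDK1, their partner kinase, was higher by 0.35 and 0.32 and turned negative in both lines on the deposited values. BE(2)C library 1 had the highest value of all 9 libraries for CCNB1, CCNB2, CCNA2, PLK1, TOP2A, MKI67 and TPX2. That library also had the lowest mitochondrial share of the 3 BE(2)C libraries, at 24.5%, and the part of this difference was not tested.

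FOXM1, the transcription factor of the G2 genes, did not follow the cyclins. It was at 176, 181 and 217 in Kelly, 128, 108 and 117 in BE(2)C and 116, 107 and 105 in SH-SY5Y. Kelly was higher than BE(2)C by 0.69 ± 0.10 (SE, log2; limma, adjusted p = 0.000273), and BE(2)C was not called against SH-SY5Y (0.10, adjusted p = 0.379). CDC25C, the phosphatase that activates CDK1, was low in all lines, at 19.7, 15.2 and 20.8 in Kelly and 15.6, 4.86 and 9.84 in BE(2)C. Its call of higher in Kelly than in BE(2)C (0.93, adjusted p = 0.0419, limma) was lost when any 1 of 8 libraries was left out.

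The mitotic kinases held the largest differences of the class. PLK1, which acts in mitotic entry and spindle assembly, was at 203, 217 and 220 in Kelly, 315, 273 and 252 in BE(2)C and 110, 114 and 94.6 in SH-SY5Y. AURKA, the centrosomal Aurora kinase known to bind and stabilise N-Myc protein, was at 45.3, 49.6 and 45.9 in Kelly, 41.7, 38.3 and 39.3 in BE(2)C and 14.9, 21.0 and 12.3 in SH-SY5Y. Neither amplified line overlapped SH-SY5Y in these genes. The log2 fold change of PLK1 was 1.39 ± 0.10 in BE(2)C (SE; limma, adjusted p = 2.61e-06), and PLK1 was higher in Kelly too (adjusted p = 2.47e-05). That of AURKA was 1.52 ± 0.16 (adjusted p = 4.98e-05) and 1.29 ± 0.16 (adjusted p = 0.000125), and it kept its call in both lines under all 5 scalings. AURKB, the kinase of the chromosomal passenger complex, was higher by 1.21 and 0.85, and BIRC5, which encodes its partner survivin, by 0.64 and 0.32 (negative in both lines on the deposited values). BUB1, a kinetochore kinase, was the exception, at 17.4, 21.4 and 22.8 in Kelly, 40.5, 31.4 and 31.8 in BE(2)C and 34.1, 41.4 and 38.3 in SH-SY5Y. It was lower in Kelly (-0.86 ± 0.14, SE; limma, adjusted p = 0.00075) and not called in BE(2)C (-0.14). TTK, another checkpoint kinase, was called in BE(2)C (0.29) and not in Kelly (0.26), and that call was lost when any 1 of 4 libraries was left out.

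In the checkpoint and anaphase group, BUB1B, CDC20 and ESPL1 were higher in both lines. ESPL1, which encodes separase, was at 87.4, 87.1 and 81.9 in Kelly, 81.9, 71.6 and 72.3 in BE(2)C and 44.1, 45.3 and 35.2 in SH-SY5Y. The amplified lines lay above SH-SY5Y by 1.03 ± 0.11 (SE, log2; limma, adjusted p = 3.36e-05) and 0.85 ± 0.11 (adjusted p = 0.000103). BUB1B differed by 0.43 and 0.58 and CDC20 by 0.46 and 0.48; on the deposited values both turned negative in Kelly and CDC20 in BE(2)C. MAD2L1, the core checkpoint protein, was higher in BE(2)C (0.51; -0.04 on the deposited values) and not called in Kelly (-0.03).

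MKI67 and TOP2A, markers much used to read proliferation, were not called between Kelly and SH-SY5Y on the scaled TPM. MKI67, which encodes Ki-67, was at 158, 184 and 149 in Kelly, 248, 211 and 227 in BE(2)C and 158, 159 and 160 in SH-SY5Y. TOP2A, which encodes the mitotic topoisomerase, was at 296, 342 and 292 in Kelly, 475, 390 and 398 in BE(2)C and 310, 294 and 306 in SH-SY5Y. In both genes Kelly overlapped SH-SY5Y and BE(2)C lay above both lines. Against SH-SY5Y, MKI67 was higher in BE(2)C by 0.52 ± 0.09 (SE, log2; limma, adjusted p = 0.000726) and not called in Kelly (0.04, adjusted p = 0.747). TOP2A was higher in BE(2)C by 0.47 and not called in Kelly (0.03); on the deposited values BE(2)C stood at -0.05 for MKI67 and -0.10 for TOP2A. On those values limma called Kelly lower than SH-SY5Y in both, at -0.65 for MKI67 and -0.67 for TOP2A. CENPE, the kinetochore motor, was higher in both lines (0.91 and 1.27), CENPA, the centromeric histone, in Kelly (0.62) and not called in BE(2)C (0.26), and CENPF in neither (0.25 and 0.39). CENPA in Kelly turned negative on the deposited values. The spindle genes TPX2, KIF11 and KIF23 were higher in both lines, by 0.34 to 0.70 in Kelly and 0.32 to 0.90 in BE(2)C, and except for TPX2 in BE(2)C all turned negative on the deposited values.

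The classes were also set against each other within a library. The ratio of their sums is not moved by a scaling factor of the library. The summed level of the mitotic genes was 0.884 ± 0.0745 times that of the replication genes in BE(2)C (SD, n = 3), 0.642 ± 0.0335 times in Kelly and 0.641 ± 0.0147 times in SH-SY5Y. The BE(2)C libraries stood at 0.970, 0.843 and 0.839, and the lowest of them lay above the highest of the other 6, at 0.680. The sum is carried by abundant genes, and the median over members gave another order. By the median log2 level, the mitotic genes stood above the replication genes by 0.177 ± 0.0231 in SH-SY5Y, against 0.50 ± 0.161 in Kelly and 0.463 ± 0.114 in BE(2)C (SD, n = 3). On the deposited values these differences were 0.17, 0.46 and 0.43. With CCNA2, CHEK1, CCNE1, CCNE2 and MKI67 left out, whose roles span phases, they were 0.22 in Kelly, 0.12 for BE(2)C and -0.10 for SH-SY5Y. The order of Kelly and BE(2)C against SH-SY5Y stayed, and the sign in SH-SY5Y did not. The ratio of CCNB1 to CCNE1, a mitotic cyclin over a cyclin of S-phase entry, was 41.0 ± 14.8 in BE(2)C. Kelly had 11.5 ± 2.58 and SH-SY5Y 6.52 ± 0.772. BE(2)C library 1 had the highest ratio of the 9, at 58.1, and the other BE(2)C libraries stood at 33.7 and 31.3, above the 13.8 of the highest Kelly library.

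The 5 members called lower in Kelly against SH-SY5Y had neighbours on the chromosome that were lower as well, while the members lower in BE(2)C were mixed in this respect. This was looked at after the values were seen. For each member, the other tested genes within 1 Mb on either side were taken, members left out, on GRCh38 coordinates of GENCODE release 29. MCM7 (chr7:100092728-100101940, minus strand) was lower in Kelly than in SH-SY5Y, and its 49 neighbours had a median log2 fold change of -1.02, with 31 called lower and 2 higher. The 8 neighbours of MCM6 (chr2:135839626-135876426) had a median of -0.81, with 6 lower. The 23 neighbours of CHEK1 (chr11:125625136-125676255) stood at -0.95, with 13 lower, the 9 of RRM1 (chr11:4094707-4138876) at -1.02 and the 5 of BUB1 (chr2:110637698-110678114) at -1.30. These are all 5 members called lower in that comparison. In the other direction, the 7 neighbours of MCM5 (chr22:35400063-35425430) stood at 0.73, with 6 higher, the 13 of MCM2 (chr3:127598223-127622436) at 0.89, with 9 higher, and the 5 of AURKA (chr20:56369389-56392337) at 1.05, with 4 higher.

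Of the 7 members called lower in BE(2)C against SH-SY5Y, 5 had a neighbour median below 0 within 1 Mb. ORC1 (chr1:52372829-52404459) was lower there than in SH-SY5Y, and its 19 neighbours stood at -0.80, with 15 lower. RFC2 (chr7:74231499-74254458) was lower beside 20 neighbours at -0.66, with 13 lower. The neighbours of MCM7 stood at -0.46 and those of MCM6 at -0.56, and the 7 of CCNE1 (chr19:29811898-29824308) at -0.31, with 2 lower and 1 higher. MCM10 (chr10:13161554-13211104) was lower without such neighbours within 1 Mb: its 11 stood at 0.01, with 4 higher and 4 lower. The 5 neighbours of TYMS (chr18:657604-673578), which was lower too, stood at 0.10, with 1 higher and 1 lower. Within 3 Mb the neighbours of MCM10 stood at -0.19 in BE(2)C, with 5 higher and 9 lower. Those of TYMS stood at -0.19 as well, with 1 higher and 6 lower. In that window all 7 members had a neighbour median below 0. CHEK1 and its neighbours were near 0 in BE(2)C, at 0.02 and 0.07. Other members went against their neighbours: AURKB (chr17:8204733-8210600) was higher in BE(2)C while 32 of its 57 neighbours were lower and 1 was higher (median -0.59), and CDC20 (chr1:43358955-43363203) was higher beside a median of -0.76. GMNN, at 0.98 in Kelly, had neighbours at -0.08. Over the 50 members with at least 5 neighbours, the Pearson correlation of a member with its neighbours' median was 0.75 in Kelly against SH-SY5Y (Spearman 0.54), 0.41 in BE(2)C against SH-SY5Y (0.35) and 0.60 in Kelly against BE(2)C (0.61). A member and its neighbours' median had the same sign for 29, 33 and 34 of these 50 members. The Pearson values were also taken for the 29 replication genes and the 21 mitotic genes apart. They were 0.77 and 0.73 in Kelly against SH-SY5Y, 0.54 and 0.33 in BE(2)C against SH-SY5Y, and 0.78 and 0.44 between the amplified lines. The Spearman values were 0.56 and 0.47, 0.52 and 0.25, and 0.75 and 0.54 in the same order. With windows of 3 Mb the Pearson values over 54 members were 0.72, 0.52 and 0.67, and the Spearman values 0.35, 0.44 and 0.62. In Kelly against SH-SY5Y the Spearman value was then 0.52 for the replication genes and 0.11 for the mitotic genes, and the Pearson value 0.81 and 0.56. These are descriptions across genes of the same libraries, and nearby members such as TK1 and BIRC5 share neighbours. DNA copy number was not measured here, and its part in these levels was not tested.

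**Figure D5:**
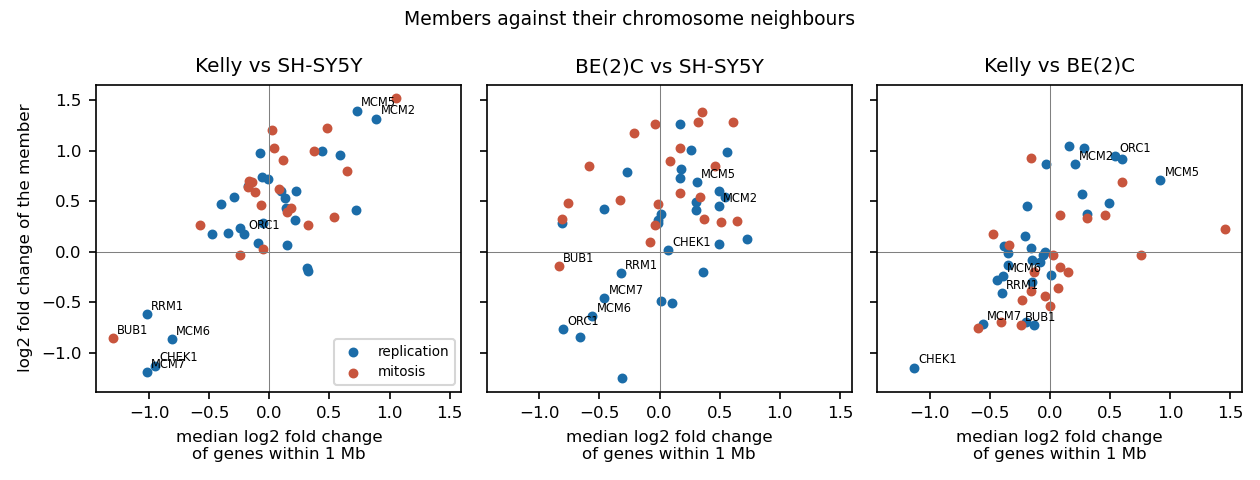
Each point is 1 member with at least 5 neighbours: its log2 fold change (vertical axis) against the median of the tested genes within 1 Mb (horizontal axis), for the 3 comparisons on the scaled TPM. In Kelly against SH-SY5Y the 5 lowest members lie at the lower left, with neighbour medians of -0.81 or less; on the deposited values all 54 members have lower values in each comparison with SH-SY5Y, by unequal amounts.

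Further genes of the same pathways were taken from lists. Of 46 other replication genes, 18 were higher (39.1%) and 9 lower in Kelly against SH-SY5Y, and 13 (28.3%) and 8 in BE(2)C, beside 28.1% and 28.6% of all tested genes higher. The share called higher in BE(2)C is thus that of all genes. The share called lower was 19.6% in Kelly and 17.4% in BE(2)C, below the 27.2% and 30.7% of all tested genes. The list had medians of 0.14 and 0.15 that are smaller than the shift of all genes with scaling. POLD1, the catalytic subunit of the lagging strand polymerase, was higher in Kelly by 1.05 and RRM2, the small subunit of ribonucleotide reductase, by 0.88. ORC5, of the origin recognition complex, was lower in Kelly, with a log2 fold change of -1.46 against SH-SY5Y and -1.56 against BE(2)C. In BE(2)C, DTYMK, the thymidylate kinase, was higher by 1.60 and CLSPN, the adaptor of CHEK1, lower (-1.20). Of 64 other mitotic genes, 31 were higher (48.4%) and 10 lower (15.6%) in Kelly and 37 (57.8%) and 7 (10.9%) in BE(2)C. Their medians were 0.34 and 0.52. All these counts are on the scaled TPM. CENPM, a centromere protein, had the largest difference, at 33.6 ± 3.12 in SH-SY5Y (SD, n = 3) against 191 ± 15.3 in Kelly and 135 ± 6.76 in BE(2)C. Between the amplified lines, 16 of these 64 other mitotic genes were higher in Kelly and 21 lower, led by NCAPD3 (-1.67), CKS2 (-1.58) and HMMR (-1.57). In that comparison 27.9% of all tested genes were higher and 24.6% lower. The share of the list called higher was thus not above that of all genes, and the share called lower was.

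The regulators of these classes were mixed, in small lists to be read beside the 28.1% higher and 27.2% lower of all genes in Kelly and the 28.6% and 30.7% in BE(2)C. Of 17 tested E2F, DREAM and MYB genes, 6 were higher and 6 lower in Kelly, and 5 and 7 in BE(2)C. E2F1, an activator of S-phase genes, was at 144 ± 7.49 in SH-SY5Y (SD, n = 3) and at 260 ± 2.44 and 277 ± 18.6 in Kelly and BE(2)C, with log2 differences of 0.85 and 0.94. E2F3, another activator, was lower in Kelly (-1.04). Its levels were 96.0 ± 1.52 in SH-SY5Y, 46.3 ± 3.04 in Kelly and 59.2 ± 0.607 in BE(2)C, so both amplified lines lay below SH-SY5Y. E2F2 was higher in Kelly than in BE(2)C (1.41). Of 7 genes that restrain CDKs, the inhibitors and WEE1, 3 were higher and 3 lower in Kelly, and 3 and 4 in BE(2)C. CDKN1C, which encodes the inhibitor p57, was at 25.8 ± 2.30 in SH-SY5Y, 0.787 ± 0.682 in Kelly and 0.364 ± 0.169 in BE(2)C. WEE1, the kinase that holds CDK1 inactive, was lower in both lines (-1.09 and -1.05). CDKN1A, which encodes p21, was at 37.1 ± 1.60 in SH-SY5Y, with Kelly above it at 80.4 ± 21.6 and BE(2)C below at 14.8 ± 2.43. Of 14 APC/C genes, 6 were higher and 2 lower in Kelly and 5 and 0 in BE(2)C (1 lower by unadjusted p under 0.05, limma), with ANAPC7 at 1.69 in BE(2)C. Of 11 cohesin genes, 3 were higher and 2 lower in Kelly and 3 and 1 in BE(2)C, 27.3% higher in each line and so near the share of all genes, with STAG2 at 1.22 and 0.92.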

How the data were processed

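RNA of 9 libraries was sequenced by the authors, 3 from each line, with a NEBNext Ultra kit per the labels' protocols. The authors deposited log10 values, which the values themselves show to be log10(TPM + 1): back-transformed, they sum to 966592 to 980009 per library. Per the submitters' processing notes, Salmon 0.3.2, HISAT 0.1.6 and GRCh38 are named, in roles not given there. How transcripts were summed to genes and whether strand was used are not given in the sources used here either. As TPM keeps no depth, no counting interval is given.

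Of 19837 entries, 92 spike-ins and 11 reporter or selection markers were left out of the total, and 28 entries with a date in place of a symbol stayed in the total only. Values were rescaled to the gene total and divided by trimmed-mean factors without count weights (trimming 30% by log ratio and 5% by log level from both ends; factors 0.758 to 1.17). limma 3.58.1 (R 4.3.3), with its trend option, was fitted to log2(scaled TPM + 1) over all 9 libraries in 1 fit for the 13076 genes that reached 1 in 3 or more libraries. Tests were two-sided, adjusted by Benjamini-Hochberg and called under 0.05. A fold change on this scale understates the change of low genes. The fit was tested on simulated data. Every member could be named; from each further list, up to 3 called genes per comparison with the largest change and at least 10 scaled TPM in the higher line. Promoters came from RefSeq, 1 window per symbol; the last 30 bases lay in a GENCODE transcript of that direction for 39 of the 45. The members and lists were chosen with earlier results of these data known. Every column of values was used, so the number of unused columns is 0. Other scalings, pseudocounts (0.1 and 5), filters, fits, a replicate block and leaving out each library were tried as alternatives.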

Additional observations from a re-analysis of the deposited data

How the results depend on the processing

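On the deposited values, with spike-ins in the total, the replication medians were -0.27 in Kelly and -0.21 in BE(2)C against SH-SY5Y and -0.12 between the amplified lines, and the mitotic medians against SH-SY5Y -0.18 and -0.05. Calls of replication genes there were 2 higher and 14 lower in Kelly and 2 and 11 in BE(2)C. Those of mitotic genes were 2 and 5, and 5 and 2, and between the amplified lines 1 mitotic gene was higher. Of all 13076 tested genes, 1324 were called higher and 7457 lower in Kelly on that scale. In BE(2)C these were 1547 and 6639, and between the amplified lines 2491 and 3277. With a pseudocount of 0.1 on the deposited values, chosen after seeing the data, the counts of members were the same. The medians of members were then -0.29, -0.23, -0.13, -0.19 and -0.05. Those of all tested genes were -0.67 in Kelly and -0.56 in BE(2)C against SH-SY5Y, and -0.09 between the amplified lines. With library totals only, the replication medians were 0.28, -0.12 and 0.33, and the mitotic median 0.06 in BE(2)C and 0.17 between the amplified lines. Calls in BE(2)C were then 5 higher replication genes and 8 higher and 2 lower mitotic genes. Between the amplified lines 17 replication genes were higher and 2 lower, and 8 mitotic genes higher and 1 lower. Of all tested genes, 1905 were higher and 6099 lower in BE(2)C under this scaling, and 5178 and 1796 between the amplified lines. With mitochondrial genes out of the total, the replication medians were 0.28 and 0.13 and the mitotic median in BE(2)C 0.31. Between the amplified lines 5 mitotic genes were then higher, beside 3994 of the 13076 tested genes. With quantile normalization the replication medians were 0.26, 0.10 and 0.09, 2 mitotic genes were lower in Kelly and 12 higher in BE(2)C. Of all tested genes, 3657 were then lower in Kelly and 3869 higher in BE(2)C. The causes of these changes were not tested. With only the lines compared in the fit, 1 mitotic gene was higher between the amplified lines. Without the role-spanning members the replication median in BE(2)C was 0.37, and the mitosis minus replication difference 0.22, 0.12 and -0.10. Leaving out single libraries, the replication medians ran from 0.33 to 0.48 in Kelly (0.33 without Kelly replicate 2) and from 0.30 to 0.37 in BE(2)C, and the mitotic genes higher in Kelly than in BE(2)C from 1 to 3 (1 without Kelly replicate 1 or BE(2)C replicate 3). Of 113 calls of members, 11 were lost without some library: BIRC5 (2 comparisons), CDK1, KIF11, TK1 and TTK in BE(2)C, CDC6, KIF23 and POLA1 in Kelly, and CDC25C and ORC6 between the amplified lines. The other pseudocounts and filters and the fit without the trend kept every class count within 1.5 times.

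Counting only members called on the scaled TPM or on the other scale, log2 fold changes that changed sign on the deposited values in Kelly against SH-SY5Y were MCM3 -0.24, MCM4 -0.11, MCM10 -0.60, CDC6 -0.41, CDT1 -0.16, ORC1 -0.45, GINS1 -0.24, GINS2 -0.10, PCNA -0.40, RFC2 -0.49, RFC3 -0.00, RFC5 -0.46, POLA1 -0.40, TYMS -0.30, TK1 -0.06, CCNE2 -0.41, CCNA2 -0.01, CCNB1 -0.12, CDK1 -0.34, CDC20 -0.24, BUB1B -0.26, TTK -0.39, TOP2A -0.67, MKI67 -0.65, BIRC5 -0.06, CENPA -0.08, KIF11 -0.29, KIF23 -0.25 and TPX2 -0.01. In BE(2)C they were MCM2 -0.12, MCM3 -0.26, CDC6 -0.28, CDT1 -0.45, CDC45 -0.08, GINS2 -0.02, PCNA -0.16, RFC4 -0.38, RFC5 -0.13, POLA1 -0.17, TK1 -0.28, CDK1 -0.24, CDC20 -0.08, TTK -0.24, MAD2L1 -0.04, TOP2A -0.10, MKI67 -0.05, FOXM1 -0.44, BIRC5 -0.24, KIF11 -0.23 and KIF23 -0.01. With library totals only, they were in BE(2)C MCM2 -0.01, MCM3 -0.15, CDC6 -0.18, CDT1 -0.37, PCNA -0.05, RFC5 -0.03, POLA1 -0.08, TK1 -0.18, CDK1 -0.14, TTK -0.16, FOXM1 -0.35, BIRC5 -0.14 and KIF11 -0.14, and between the amplified lines MCM4 0.32, MCM6 0.08, CDC6 0.32, GINS1 0.02 and PCNA 0.22. With quantile normalization, TOP2A -0.21 in Kelly and MCM3 -0.06 in BE(2)C changed sign. Members called on neither scale that changed sign on the deposited values were ORC6, CCNB2 and CENPF in Kelly, CDC25C, CENPA, CENPF and CHEK1 in BE(2)C and 5 between the amplified lines; with library totals only there were 4, 5 and 11.

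The replicate numbers do not pair the libraries: same-numbered libraries of different lines deviated with correlations of -0.0545 to 0.0266. A fit with the replicate number as a block gave 17 higher and 4 lower replication genes and 16 higher and 1 lower mitotic genes in Kelly, 18 and 7, and 18 and 0 in BE(2)C, and 11 and 7, and 4 and 8 between the amplified lines. Depth is unknown and limits how far low genes such as CHEK1, CDC25C and CCNE2 can be read.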
